A study of Homo sapiens with 18 samples.

Results

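Gene expression after 4 weeks in 5 nM rotenone was compared with that after 4 weeks in vehicle, in SK-N-MC cells. The comparison takes the 3 arrays labelled 5 nM and 4 weeks (4w5 nM) and the 3 labelled 0 nM and 4 weeks (4w0 nM), which are 6 of the 18 arrays of the study. SK-N-MC is an established human line that the labels call neuroepithelioma. All cells, vehicle included, grew in medium without pyruvate, which protects against complex I inhibitors, and the vehicle was dilute ethanol. The labels call 5 nM rotenone non-lethal for these cells and 50 nM more toxic, with some death of the cells. The study itself calls 5 nM marginally toxic, with a little cell death and slower growth late in the exposure. Dishes of 1 experiment, condition and time were pooled before RNA extraction, so an array stands for a pool of dishes from 1 of 3 experiments, and the p-values below measure the spread between such pools of a single cell line. The groups used beside the main pair are cells exposed to 50 nM for 4 weeks (4w50 nM) and the 1-week groups without rotenone (1w0 nM) and with 5 nM (1w5 nM), each with 3 arrays.

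Rotenone is a plant compound used as a pesticide. It blocks complex I, the first enzyme of the mitochondrial respiratory chain, and it also binds tubulin and depolymerizes microtubules, the tracks on which kinesin and dynein motors carry cargo. Cells under amino acid shortage or with unfolded protein in the endoplasmic reticulum (ER) make the transcription factors ATF4 and CHOP (gene DDIT3), which turn on genes of amino acid supply, while interferon signalling turns on antiviral genes and the HLA class I molecules that present peptides. SK-N-MC cells carry the EWS-FLI1 fusion of Ewing family tumours.

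Values are signals of Affymetrix HG-U133A probe sets, on a linear scale with no unit, which the authors computed as model-based expression indexes. Signals under 16 were set to 16 before the log2, so a fold against a group at that floor is a lower bound. A gene is said to rise or fall where limma, fitted to all 18 arrays, gave an adjusted p below 0.05 over the 9162 genes tested. SE is the standard error of a log2 fold change. GAPDH, an enzyme of glycolysis, had signals of 8983, 8996 and 9052 in 4w0 nM and 9187, 9411 and 8826 with 5 nM. B2M, which pairs with every HLA class I chain, had 4871, 4744 and 4301 and 4213, 4038 and 4482. ACTB, cytoplasmic actin, had 8693, 8701 and 8849 and 8406, 8199.7 and 6021, with its lowest value on 4w5 nM replicate 3. GAPDH and B2M overlapped between the groups and ACTB did not, and none of them passed the test (adjusted p = 0.854, 0.221 and 0.0878, limma). Of the genes known in Ewing family tumours, CD99, NKX2-2, STEAP1 and CCND1 had mean signals of 3314 ± 144, 1603 ± 62.1, 2777 ± 13.2 and 1690 ± 89.0 (SD, n = 3) in 4w0 nM cells. All 18 EWS-FLI1 genes measured had a median of 1311 in 4w0 nM, and the genes just named lay above it. Of sympathetic neuroblast markers, 10 of 16 listed were measured, with a median of 82.7. DBH at 45.6 ± 1.38 and CHGA at 51.5 ± 2.46 lay below that median. The genes named were thus taken from above the median of the first list and from below that of the second.

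Before the results, 3 properties of the arrays have to be given. The 18 probe sets of the hybridization controls, which are spiked into the mix put on the array, averaged 9.92 ± 0.11 on the log2 scale over the 3 vehicle arrays (SD) and 8.87 ± 0.21 over the 3 arrays of 5 nM, without overlap. An exact permutation test of 3 arrays against 3 gave p = 0.1 (two-sided), the smallest it can give. The part of this difference in the results was not tested.

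The second property is that 4w5 nM replicate 3 stands apart. Across genes it had r = 0.97 with replicates 1 and 2, which had r = 0.99 with each other, as did the pairs of 4w0 nM arrays (0.99). On it, 102 genes were at least 2-fold higher and 116 at least 2-fold lower than the mean of replicates 1 and 2. Among genes with a mean of at least 200 in 4w5 nM, 8 of the 15 that stood highest on it are known genes of the ER stress response. TRIB3, a pseudokinase induced by ATF4 and CHOP, had 213, 279 and 1664 on replicates 1, 2 and 3, against 513, 547 and 534 in 4w0 nM. DDIT3, which encodes CHOP, had 318, 385 and 1371, against 384, 372 and 346. HERPUD1, a part of the machinery that degrades misfolded ER proteins, had 269, 345 and 1077, against 343, 353 and 384. Replicate 3 was the only one of the 3 arrays above the vehicle range for each of these genes, apart from DDIT3, where replicate 2 was also just above it. The ER chaperone gene HSPA5, picked for its role, showed the same pattern with 1564, 1753 and 3924 against 2234, 2337 and 2209. In the other direction, HMGCS1, an early enzyme of sterol synthesis, had 1388, 1211 and 366, against 609, 631 and 681 in 4w0 nM. INSIG1, a sensor of sterol levels, had 951, 853 and 272, against 460.4, 426 and 437. For these 2 genes replicates 1 and 2 lay above every vehicle array and replicate 3 below every one. Of the 18 genes of cholesterol synthesis measured, 1 rose and 1 fell with all arrays, while 4 rose and 1 fell without replicate 3, and the median log2 fold change of the list was 0.00 with and 0.50 without it. Counts of rises or falls in a list are therefore also given without 4w5 nM replicate 3 where either moves by 1.5 times or more, or from or to 0, while smaller moves are not given each time.

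**Figure D1:**
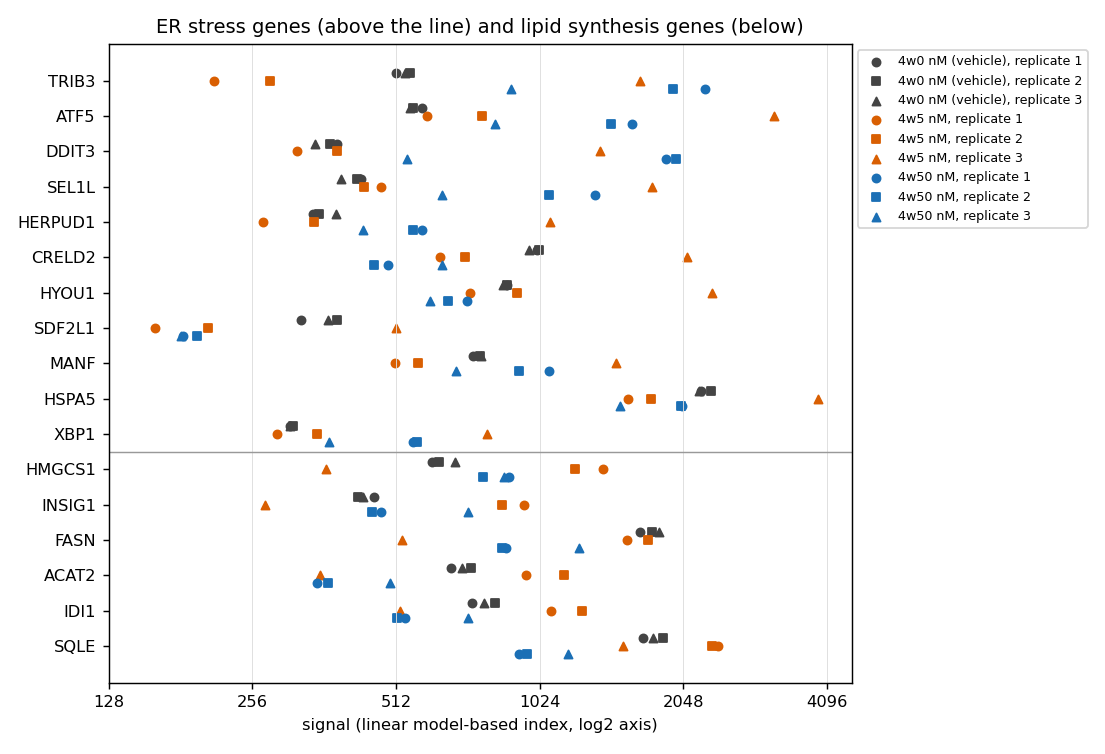
Signal (x axis, log2 scale) on each of the 9 arrays of 4 weeks for 11 genes of the ER stress response and 6 of lipid synthesis. Colours mark groups and symbols mark replicates. The orange triangle, 4w5 nM replicate 3, lies to the right of the other 5 nM arrays in the upper part and to the left in the lower part.

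The third property concerns the 1-week vehicle group, which enters only the comparison between weeks. Its arrays had r between 0.91 and 0.98 with each other. For the 2-fold changes of 4w5 nM cells, an array can be placed by whether it lies nearer on the log2 scale to the 4w5 nM mean or to the 4w0 nM mean. 1w0 nM replicate 2 lay nearer to 4w5 nM for 52.9% of the 331 rises and 51.1% of the 274 falls. Replicates 1 and 3 did so for 17.2% and 9.06% of the rises and 30.3% and 30.7% of the falls. On the 6 rotenone arrays of 1 week the share was between 0.604% and 1.51% for rises and between 1.09% and 5.47% for falls. The vehicle arrays of 1 week were thus nearer to the cells exposed for 4 weeks than the rotenone arrays of 1 week were, by this measure, and the reason was not tested.

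With 5 nM for 4 weeks, 1703 genes rose (18.6% of the 9162 tested) and 1310 fell (14.3%), 32.9% in all. At least 2-fold, 331 rose (3.61%) and 274 fell (2.99%), of which 10 and 31 reached 4-fold. The genes that rose at least 2-fold had a median signal of 111 with vehicle and 276 with 5 nM, and those that fell had 140.4 and 55.0. The median gene had a log2 fold change of 0.03. The groups did not overlap for 53.1% of the genes tested, 2755 of them higher and 2111 lower with 5 nM. A lack of overlap was therefore common, and where it is given below for single genes it is description only. Without 4w5 nM replicate 3 the counts were 291 and 284, 303 of the 331 rises and 262 of the 274 falls kept an adjusted p below 0.05, and no gene was called in the opposite direction. The balance moved with the scaling, to 265 rises and 287 falls under quantile normalization and 388 and 237 under median scaling.

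The 15 largest falls had log2 fold changes between -3.38 and -2.33, and 9 of these genes are described here by their arrays. G0S2, an inhibitor of the fat-splitting lipase ATGL, had signals of 274, 292 and 301 in 4w0 nM and 21.0, 27.8 and 36.3 with 5 nM, a 10.4-fold fall (log2 fold change -3.38, SE 0.19). CYTL1, a small secreted protein of cartilage, had 467, 499 and 487 and 55.4, 44.3 and 58.7, a 9.23-fold fall. DLK1, a NOTCH-related membrane protein of immature neuroendocrine and fat precursor cells, had 411, 366 and 394 and 43.0, 49.0 and 56.7. In all 3 genes the highest 4w5 nM array lay far below the lowest vehicle array. COL6A3, a chain of collagen VI, had 370.3, 398 and 392 and 67.0, 37.6 and 52.8, a 7.57-fold fall (adjusted p = 5.25e-07, limma). SLC18A3, the transporter that loads acetylcholine into vesicles, had 144, 173 and 162 and 18.6, 25.4 and 30.3, a 6.56-fold fall. HMOX1, heme oxygenase 1, which opens the heme ring, had 432, 431 and 431 and 89.3, 77.5 and 79.7, a 5.26-fold fall. HMOX1 differed little within either group, by comparison with its fall. Outside the main pair HMOX1 averaged 123 on the 1-week vehicle arrays, 170 on the 1-week arrays of this dose and 178 on the 4w50 nM arrays. Its 4w0 nM level was thus the highest of these groups, and the reason was not tested. NSG2, a protein of neuronal endosomes, had 79.2, 104 and 111 and 18.7, 20.5 and 17.9, close to the floor with 5 nM. KRT8, a keratin of simple epithelia, had 210, 212 and 205 and 43.1, 36.4 and 45.2, and CRYBA2, a beta crystallin, 103, 127 and 121 and 23.9, 19.9 and 15.4, with 1 array under the floor. The other large falls, LGALS1, NPTX2, LOXL1, S100A11, IFI6 and COL9A2, had log2 fold changes between -3.24 and -2.45. The groups did not overlap for any of the 15 genes, which were picked for their large falls.

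The 15 largest rises started from low vehicle signals, and 6 of them are described here by their arrays. DZANK1, with zinc ribbon and ankyrin repeat domains, had 17.4, 16.8 and 14.2 in 4w0 nM and 97.4, 123 and 203 with 5 nM, a rise of 8.06-fold with the vehicle arrays at or near the floor. ZIC1, a zinc finger transcription factor of the cerebellum and neural crest, had 59.3, 59.6 and 50.2 and 297, 242 and 431, a 5.59-fold rise (log2 fold change 2.48, SE 0.55, adjusted p = 0.00233, limma). YAP1, the transcription coactivator held back by the Hippo pathway, had 30.7, 46.7 and 39.5 and 145, 135 and 209, a 4.16-fold rise. Vehicle and 5 nM arrays were apart for all 3, and replicate 3 was the highest 5 nM array in each. PIEZO2, a mechanically opened ion channel of touch neurons, had 33.5, 37.2 and 33.3 and 94.9, 152 and 193. MTHFD2L, a mitochondrial enzyme of one-carbon metabolism, had 32, 47.8 and 43.3 and 162, 168 and 149, with the smallest SE of the 15 (0.17 for a log2 fold change of 1.98). PDGFRL, a receptor-like protein, had replicate 3 far above the others, with 11.3, 10.8 and 21.9 and 61.9, 62.9 and 236, and its log2 fold change, against a vehicle with 2 arrays under the floor, was 2.45 with replicate 3 and 1.81 without it. Others were NCAM2, a neural cell adhesion molecule, with 29.7 ± 7.89 and 148 ± 32.3, SEC24D, a coat protein of vesicles leaving the ER, with 36.8 ± 9.61 and 148 ± 6.09, HNMT, which methylates histamine, with 38.5 ± 2.07 and 144 ± 24.1, and ARHGAP29 with 33.5 ± 5.96 and 131 ± 25.8 (SD, n = 3). SERPINI1, HNF4G, DNAJC6, CSGALNACT2 and MSANTD2 had log2 fold changes between 1.87 and 2.27. All 15 remained called without replicate 3.

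**Figure D2:**
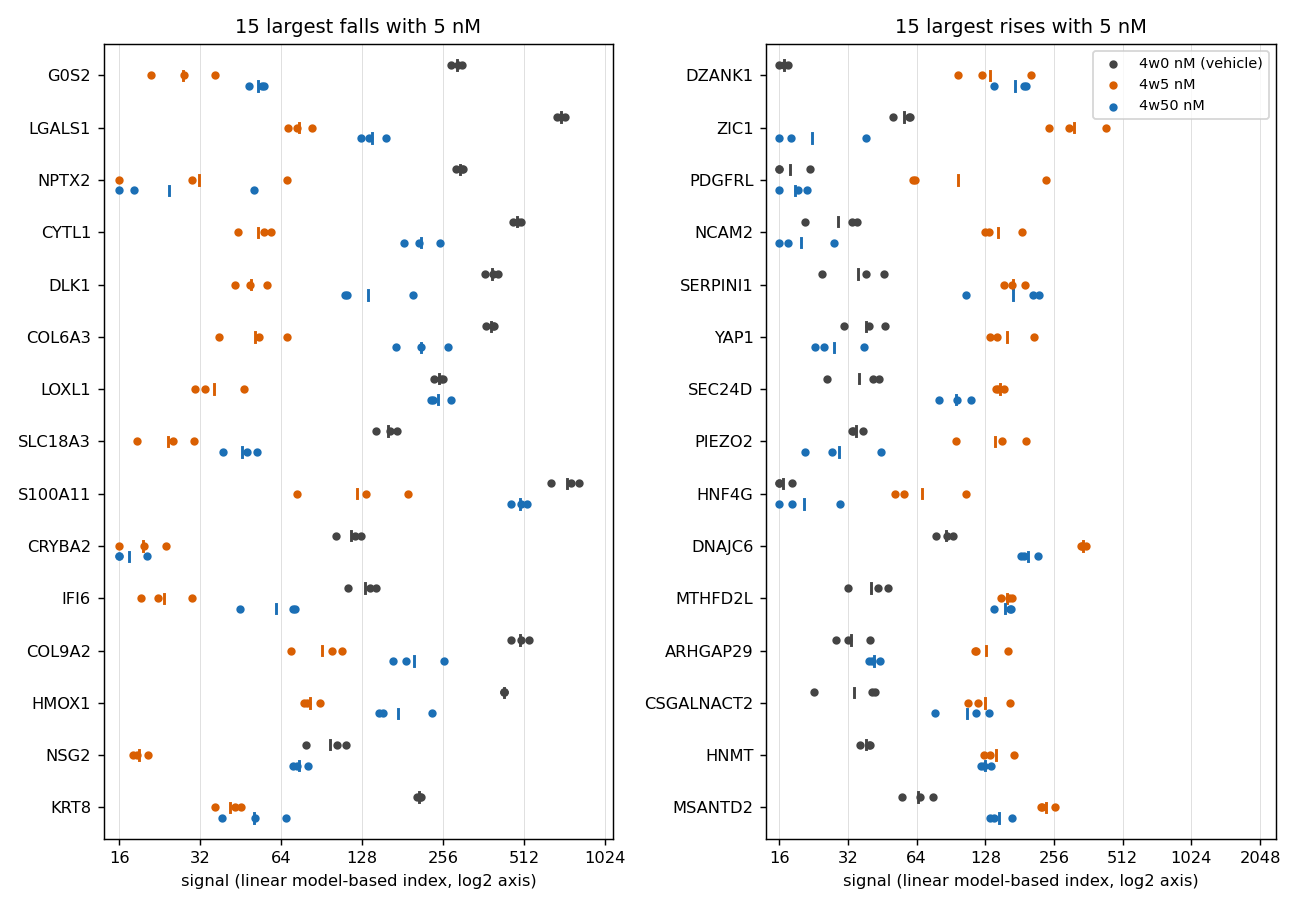
Signal (x axis, log2 scale, values under 16 drawn at 16) of the 15 largest falls and the 15 largest rises with 5 nM on each of the 9 arrays of 4 weeks (points), with the mean on the log2 scale (vertical lines). Vehicle arrays (grey) and 5 nM arrays (orange) do not overlap for any of the 30 genes, and the 50 nM arrays (blue) lie near the vehicle for some, such as LOXL1 and ARHGAP29.

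Every called change among genes of the interferon response and of HLA class I was a fall. Of 30 interferon-response genes measured, 14 fell (46.7%, against 14.3% of all genes tested), 0 rose and 16 did not pass, with a median log2 fold change of -0.44 beside 0.03 for all genes. IFI6, an interferon-induced mitochondrial protein, had 113, 144 and 137 in 4w0 nM and 29.8, 22.3 and 19.2 with 5 nM, a 5.60-fold fall. ISG15, a ubiquitin-like protein of the antiviral response, had 258, 286 and 253 and 119, 93.1 and 104. USP18, the protease that removes ISG15 from its targets, had 116, 82.0 and 85.7 and 31.3, 33.8 and 42.7. IRF7, a transcription factor that amplifies interferon production, had 117, 110.2 and 127 and 61.9, 52.7 and 42.4, and none of these 4 genes overlapped between the groups. IFITM3, a membrane protein that blocks virus entry, fell from 3851 ± 264 to 2577 ± 241 (SD, n = 3). Of 13 genes of HLA class I and peptide loading, 6 fell (46.2%) and 0 rose. HLA-B had 2304, 2025 and 1979.8 and 395, 459 and 546, a 4.54-fold fall, HLA-C had 1975, 2009.9 and 1968 and 599, 539 and 640.4, and HLA-F and HLA-G fell 4.07-fold and 4.03-fold. HLA class I genes are so alike that their probe sets can read each other's transcripts, so these 4 values may not be independent. TAPBP, which holds class I molecules at the peptide transporter, fell from 673 ± 17.9 to 289 ± 38.9. Without replicate 3, 15 interferon-response genes fell and 1 rose, and 7 genes of the HLA list fell.

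Promoters of the interferon-response genes that fell are shown for the element read by interferon-activated transcription factors, GAAA, any 2 bases and GAAA, on either strand. Promoters were taken from RefSeq (build GRCh38.p14), from 250 bases before to 50 after the start. Of the 14 genes, 11 had a RefSeq promoter and 7 of these held the element (BST2, GBP1, IFI6, IFITM1, IFITM3, ISG15 and OAS3), as did 12 of 23 over the measured list, 2.89% of the 7482 genes tested with a promoter and 3.65% of all 27305 promoters. The stretches below run 5′ to 3′ towards the start, and capitals mark matches, which join where matches overlap.
IFI6 (chr1:27672267-27672357, minus strand): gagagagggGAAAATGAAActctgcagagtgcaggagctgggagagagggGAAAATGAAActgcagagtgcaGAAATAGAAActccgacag
ISG15 (chr1:1013367-1013417, plus strand): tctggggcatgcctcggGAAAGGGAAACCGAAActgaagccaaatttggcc
BST2 (chr19:17405730-17405780, minus strand): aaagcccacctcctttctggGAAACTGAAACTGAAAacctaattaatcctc
IFITM3 (chr11:320875-320930, minus strand): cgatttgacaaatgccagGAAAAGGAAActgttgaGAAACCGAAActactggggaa
OAS3 (chr12:112938314-112938354, plus strand): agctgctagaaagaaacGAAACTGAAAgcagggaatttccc
IFI6 had 3 separate matches in the stretch shown and the largest fall of the 30 genes. A match is only a run of letters, and no factor was measured on these promoters.

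Rises outnumbered falls among the targets of ATF4 and CHOP, by a margin that shrank without replicate 3. Of 29 measured, 14 rose (48.3%, against 18.6% of all genes tested), 1 fell and 14 did not pass, and the median log2 fold change was 0.50. CHAC1, which breaks down glutathione, had 101, 127 and 108 in 4w0 nM and 271, 402 and 392 with 5 nM, a 3.13-fold rise. ATF3, a stress-induced transcription factor, had 102, 96.0 and 93.4 and 205, 236 and 323. PSPH, the last enzyme of serine synthesis, had 123, 155 and 148 and 262, 273 and 317, and all 3 genes were higher on each 5 nM array than on any vehicle array. CBS, which joins serine and homocysteine, had 251, 288 and 282 and 388, 504 and 861, with replicate 3 highest, and a log2 fold change of 1.02 with and 0.70 without that array. ASNS, which makes asparagine, had a log2 fold change of 0.94, SLC7A11, the cystine transporter, 0.99, and ATF4 itself 0.50, which did not pass without replicate 3. NUPR1, a stress-induced nuclear protein, was the member that fell, from 100.4 ± 3.93 to 62.7 ± 9.60. The ER stress genes that set replicate 3 apart include TRIB3 and DDIT3 of this axis, and without that array 9 members rose and 4 fell, TRIB3 among the latter (log2 fold change -1.13, adjusted p = 0.0368, limma), with a median of 0.23.

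Of the 14 members that rose, 12 had a RefSeq promoter. Of these, 4 held TGATGNAA, the composite element of C/EBP and ATF factors, on either strand (ASNS, ATF3, CHAC1 and SLC7A1). So did 6 of 24 over the measured list, 1.82% of the genes tested with a promoter and 3.67% of all promoters. The element is shown in capitals for the 3 of these 4 genes that hold it before the start, the last of them on the opposite strand.
ASNS (chr7:97872453-97872503, minus strand): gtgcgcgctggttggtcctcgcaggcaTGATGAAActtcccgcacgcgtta
ATF3 (chr1:212565192-212565242, plus strand): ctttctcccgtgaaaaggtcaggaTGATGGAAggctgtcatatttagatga
CHAC1 (chr15:40953241-40953291, plus strand): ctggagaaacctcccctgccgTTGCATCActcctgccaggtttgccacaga

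Among inhibitors of the cell cycle and the DNA damage genes of the study, every called change was a rise. Of 20 cell cycle inhibitors and pocket proteins, 7 rose (35.0%, against 18.6% of all genes) and 0 fell. Without replicate 3, 6 rose and 1 fell. CDKN1B, the p27 inhibitor of cyclin-dependent kinases, had 141, 169 and 167 in 4w0 nM and 565, 421 and 553 with 5 nM, a 3.21-fold rise (log2 fold change 1.68, SE 0.16). TOB1, an antiproliferative protein that shortens mRNA tails, had 75.6, 88.0 and 69.8 and 180.2, 162 and 213. RBL2, the pocket protein p130, had 156, 186 and 189.7 and 340, 298 and 351, and no 5 nM array of the 3 genes overlapped with vehicle. CCNG2, a cyclin of resting cells, rose with all arrays (log2 fold change 1.01) but not without replicate 3 (adjusted p = 0.107, limma). A list of DNA damage genes had been drawn from these same samples, so it is not independent evidence of their direction. Of its 20 measured members, 14 rose (70.0%, against 18.6% of all genes) and 0 fell. ATR, the kinase that senses stalled replication, had 347, 359.6 and 335 and 790.1, 745 and 718, REV3L, the catalytic subunit of a polymerase that copies past lesions, 118, 144 and 135 and 321, 251 and 309.8, and WRN, a helicase lost in Werner syndrome, 163, 154 and 163 and 445, 404 and 568. Of 61 other DNA repair genes, 11 rose (18.0%) and 9 fell (14.8%), shares close to those of all genes tested. FANCF, of the Fanconi complex, rose from 94.6 ± 9.74 to 168 ± 7.56, and POLH, which copies past UV damage, fell from 151 ± 10.5 to 73.3 ± 8.09 (SD, n = 3).

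**Figure D3:**
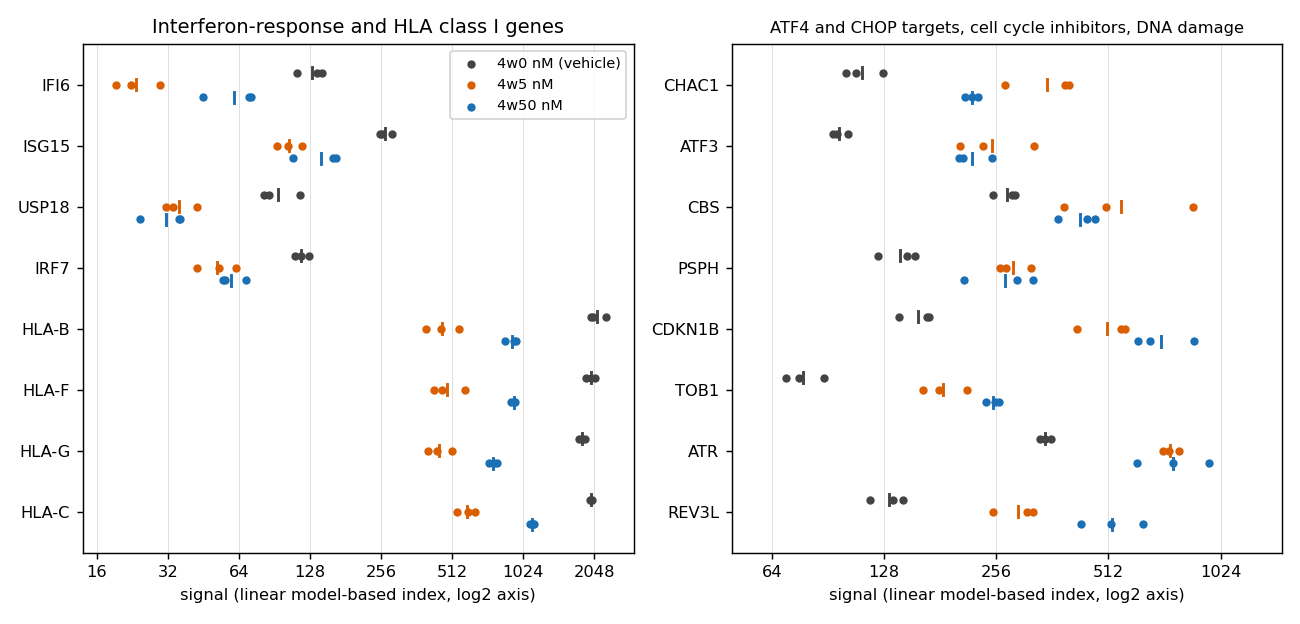
Signal (x axis, log2 scale) on each of the 9 arrays of 4 weeks (points) with the mean on the log2 scale (lines) for 4 interferon-response and 4 HLA genes (left) and for 8 genes of stress, cell cycle and DNA damage (right). The 5 nM arrays are below every vehicle array on the left and above every one on the right.

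Of 51 genes of G2 and mitosis, 9 rose (17.6%, near the 18.6% of all genes) and 1 fell (1.96%, against 14.3%). Without replicate 3, 12 rose and 0 fell. HMMR, a spindle protein, had 337, 327 and 318 in 4w0 nM and 951, 975 and 908 with 5 nM, and BUB1, a checkpoint kinase, had a log2 fold change of 0.82. Of 55 DNA replication genes, 5 rose (9.09%), among them the origin recognition genes ORC2 (0.77) and ORC4 (0.75), and 9 fell (16.4%). The falls included ASF1B, a histone chaperone (-1.13), and LIG1, the ligase that joins Okazaki fragments (-0.76 on the log2 scale). Without replicate 3, 7 rose and 4 fell. Of 23 histone genes, 8 fell (34.8%) and 1 rose, and H1-2, a linker histone, fell from 361 ± 34.5 to 131 ± 15.8. Histone genes of a cluster are alike, and their probe sets may read several of them.

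Genes of the contractile cytoskeleton and of the matrix fell in larger shares than all genes. Of 33 actin and contractile genes, 13 fell (39.4%, against 14.3%) and 2 rose, with a median log2 fold change of -0.29. TPM2, a tropomyosin, had 909, 969 and 797 in 4w0 nM and 344, 293 and 251 with 5 nM. CALD1, caldesmon, had 313, 359 and 317 and 137, 86.8 and 111, and TMSB4X, which holds actin monomers, had 644, 724 and 693 and 219, 206 and 306. These falls were 3.03-fold, 3.00-fold and 2.86-fold, and no array overlapped. Of 50 collagens and matrix genes, 15 fell (30.0%) and 6 rose, and without replicate 3 20 fell and 4 rose. COL1A2, a chain of collagen I, fell from 3142 ± 57.1 to 1097 ± 212 (SD, n = 3), TNC, tenascin C, from 304 ± 17.8 to 95.5 ± 50.6, and BGN, biglycan, from 288 ± 5.10 to 104 ± 8.09. LUM, lumican, went the other way, with 87.7, 104 and 116 and 419, 385 and 293, and FBN2, a fibrillin, rose from 56.4 ± 4.33 to 131 ± 12.9. COL3A1, often made together with collagen I, had 829.8 ± 39.5 and 1173 ± 108 and did not pass. Of 22 S100 and annexin genes, 7 fell (31.8%) and 3 rose (13.6%). S100A11 had 644, 765 and 818 and 190.3, 132 and 73.6, S100B 349.7, 437 and 445 and 120.3, 115 and 77.5, and the falls of S100A13, S100A6, S100A4, S100A10 and S100A1 lay between -1.51 and -0.83 on the log2 scale, while ANXA1 rose by 0.78.

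Of 42 tubulins and microtubule proteins, 9 fell (21.4%, against 14.3% of all genes) and 6 rose (14.3%, against 18.6%), and without replicate 3 7 fell and 9 rose. STMN4, a stathmin of neurons, which binds tubulin dimers, had 566, 546 and 487 in 4w0 nM and 119, 97.3 and 108 with 5 nM, a 4.94-fold fall. DCX, doublecortin, which stabilizes microtubules of migrating neurons, had 342, 345 and 322 and 177, 98.3 and 66.1. TPPP, a protein that bundles microtubules, had 41.7, 52.8 and 50.1 and 13.1, 7.70 and 12.8, with every 5 nM array under the floor of 16, so it fell at least 3.00-fold. The tubulins TUBB, TUBG1 and TUBB4A fell, with log2 fold changes of -0.26, -0.66 and -1.24, but none of the 3 passed without replicate 3, and TUBA1B had -0.18 and did not pass. Rises included SPAST, the microtubule-severing spastin (1.08), APC, which caps growing ends (1.07), and TUBGCP3, of the nucleating ring (0.94 on the log2 scale). Of 47 kinesins, dyneins and dynactins, 13 rose (27.7%, against 18.6%) and 4 fell, and 14 rose and 6 fell without replicate 3. KLC2, a kinesin light chain that binds cargo, had 139, 131 and 151 and 305, 320 and 338, and DYNC2H1, the dynein heavy chain of cilia, had 177, 208 and 195 and 388, 344 and 641, with its call lost without replicate 3. DYNC1I2 and KIF5B, of cargo dynein and kinesin-1, rose by 0.60 and 0.30.

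Of 30 synaptic and secretory vesicle genes, 9 fell (30.0%, against 14.3% of all genes) and 2 rose (6.67%, against 18.6%), and 8 fell and 3 rose without replicate 3. SV2B, a synaptic vesicle glycoprotein, had 405, 444 and 457 in 4w0 nM and 129, 137 and 113 with 5 nM, a 3.45-fold fall. NMU, neuromedin U, fell from 143 ± 13 to 46.8 ± 3.10, GAL, the neuropeptide galanin, from 221 ± 7.57 to 102 ± 43.5, and SYT1, the calcium sensor of release, from 212 ± 19.4 to 98.1 ± 7.41 (SD, n = 3). SYNJ1, a phosphatase that strips clathrin coats, rose, with 60.2, 73.8 and 37.8 and 210.5, 182 and 145, and so did DNAJC6, auxilin, which takes part in the same uncoating, with 92.7, 87.3 and 78.2 and 355, 335 and 340.5. Both are genes of familial parkinsonism, and over the 28 Parkinson and Alzheimer disease genes 6 rose and 6 fell (21.4% each). APOE, apolipoprotein E, fell from 666 ± 121 to 223 ± 70.1, and MAPT, tau, fell by 0.57 on the log2 scale, while APP, the amyloid precursor, rose by 0.55. Of 24 neuron differentiation genes, 2 rose (8.33%) and 4 fell (16.7%), the latter being DCX, INA, CRMP1 and CNTN1.

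The complex that rotenone blocks showed small changes at the RNA level. Of 28 complex I genes measured, 2 rose and 4 fell (7.14% and 14.3%, against 18.6% and 14.3% of all genes), none of them 2-fold. NDUFA5 had 899, 983 and 929 in 4w0 nM and 1488, 1356 and 1332 with 5 nM (log2 fold change 0.57), and NDUFB2 had 2205, 2535 and 2378 and 1785, 2009 and 1198 (-0.54), 2 accessory subunits that moved in opposite directions. Of 35 genes of complexes II to V, 9 fell (25.7%) and 1 rose, without replicate 3 6 and 0. UQCRC1, a core subunit of complex III, fell from 2835 ± 320.5 to 1819 ± 237, and ATP5F1D, of ATP synthase, from 1224 ± 86.6 to 840.3 ± 44.9 (SD, n = 3). The 50 mitochondrial ribosomal proteins had 7 rises and 5 falls, from -0.73 for MRPL2 to 1.11 for MRPS18C on the log2 scale, but 15 rises and 5 falls without replicate 3. The 52 cytosolic ribosomal proteins had 2 rises (3.85%) and 3 falls (5.77%) with a median of 0.00. Of 22 glycolysis genes, 4 fell (18.2%) and 0 rose, and 3 fell and 1 rose without replicate 3. GPI, which interconverts sugar phosphates, had 2058, 1853 and 1862 and 1251, 1076 and 873 (-0.87), and HK1, hexokinase 1, fell by 0.80 on the log2 scale.

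Antioxidant enzymes fell more often than all genes, 13 of 34 (38.2%), and 5 rose (14.7%), against 10 falls and 7 rises without replicate 3. Beside HMOX1 the falls were below 2-fold, with GPX4, which repairs lipid peroxides, going from 1868 ± 61.8 to 1169 ± 68.5, PRDX2, a peroxiredoxin, from 1583 ± 46.4 to 1051 ± 18.4, and MGST2, a membrane glutathione transferase, from 222 ± 22.2 to 126 ± 7.19 (SD, n = 3). The rises included GCLM, the regulatory subunit of glutathione synthesis (0.80), TXNRD1, thioredoxin reductase (0.53), and NFE2L2, which encodes the NRF2 factor (0.63 on the log2 scale). Of these known NRF2 targets, HMOX1 fell and GCLM and TXNRD1 rose, and NRF2 activity was not tested. Of 42 lysosome genes, 10 fell (23.8%, against 14.3% of all genes) and 3 rose (7.14%, against 18.6%). SMPD1, acid sphingomyelinase, had 1202, 1207 and 1231 in 4w0 nM and 501, 449 and 468 with 5 nM, and GRN, progranulin, fell from 711 ± 51.3 to 438 ± 149. The rises were 3 subunits of the proton pump, ATP6V1C1, ATP6V1B2 and ATP6V1A, of which ATP6V1C1 kept its call without replicate 3. Of 29 proteasome genes, 4 rose (13.8%) and 0 fell, but 12 rose without replicate 3. The median log2 fold change was 0.09 with and 0.26 without that array. Of 25 chaperones, 2 rose (8.0%) and 1 fell (4.0%), and 5 rose and 1 fell without replicate 3. HSPB1, a small heat shock protein, had 1913, 1794 and 1692 and 1150.3, 1263 and 426, and its log2 fold change was -1.08 with and -0.58 without replicate 3.

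Zinc finger genes of the ZNF family rose in a larger share than all genes, 48 of 179 (26.8%) beside 16 falls (8.94%). ZNF141 had 40.6, 35.3 and 28.3 in 4w0 nM and 135, 124 and 101 with 5 nM, ZNF267 31.7, 49.7 and 37.0 and 138, 121 and 72.8, and ZNF544, which fell, 288, 297 and 274 and 136, 94.7 and 96.0. Of 60 splicing factors, 12 rose, led by the splicing kinases CLK4 (0.92) and CLK1 (0.90 on the log2 scale), and 6 fell (4 without replicate 3). Among 46 chromatin repressors, a list taken in part from a table drawn from these samples and so not independent evidence, 7 rose and 7 fell (15.2% each), with the histone deacetylase genes HDAC4 (36.2, 42.9 and 46.3 and 104, 107 and 219) and HDAC9 the largest rises. RAB and ARF small GTPases had 12 rises (22.6%) and 7 falls (13.2%) of 53 (7 and 8 without replicate 3). They were led by RAB29, a partner of LRRK2 (1.15), and RAB31 (-1.41). Of 37 apoptosis genes, 9 rose (24.3%) and 6 fell (16.2%), beside 18.6% and 14.3% of all genes. Without replicate 3, 5 rose and 4 fell. BIRC2, an inhibitor of apoptosis, rose by 1.12 on the log2 scale. FASLG, the FAS ligand, and TRADD, a death receptor adaptor, had -1.45 and -1.11.

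Of 48 genes of receptor kinases and growth factor signalling, 10 rose (20.8%, against 18.6% of all genes) and 7 fell, a share also near that of all genes (14.3%). IGF1R, the receptor of IGF1, had 144, 152 and 156 in 4w0 nM and 229, 267 and 502 with 5 nM, and IRS1, the docking protein below it, had 123, 90.1 and 85.0 and 238, 226 and 351. The ligand IGF1 fell from 1822 ± 41.9 to 975 ± 62.2, the binding protein IGFBP4 from 901 ± 69.0 to 367 ± 93.6 and the kinase AKT1 from 702 ± 44.4 to 379 ± 62.0 (SD, n = 3). KIT, the receptor of stem cell factor, rose by 1.14, and MAP2K4, a kinase above JNK, had 118, 126 and 115 and 298, 298 and 276. Of 51 genes of the TGF-beta, BMP and WNT pathways, 10 rose (19.6%) and 12 fell (23.5%), and 6 rose without replicate 3. The ligand TGFB1 fell from 1732 ± 36.3 to 796 ± 48.1, its target TGFBI by 2.83-fold and the secreted WNT antagonist FRZB by 3.08-fold, while the WNT receptor FZD3 and the WNT transcription factor LEF1 rose by 1.26 and 1.26 on the log2 scale. Of 37 adhesion molecules, 4 rose (10.8%, against 18.6% of all genes) and 7 fell (18.9%, against 14.3%), and 2 rose and 8 fell without replicate 3. Falls included the integrin ITGA8 (-0.97) and ICAM1 (-0.80).

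**Figure D4:**
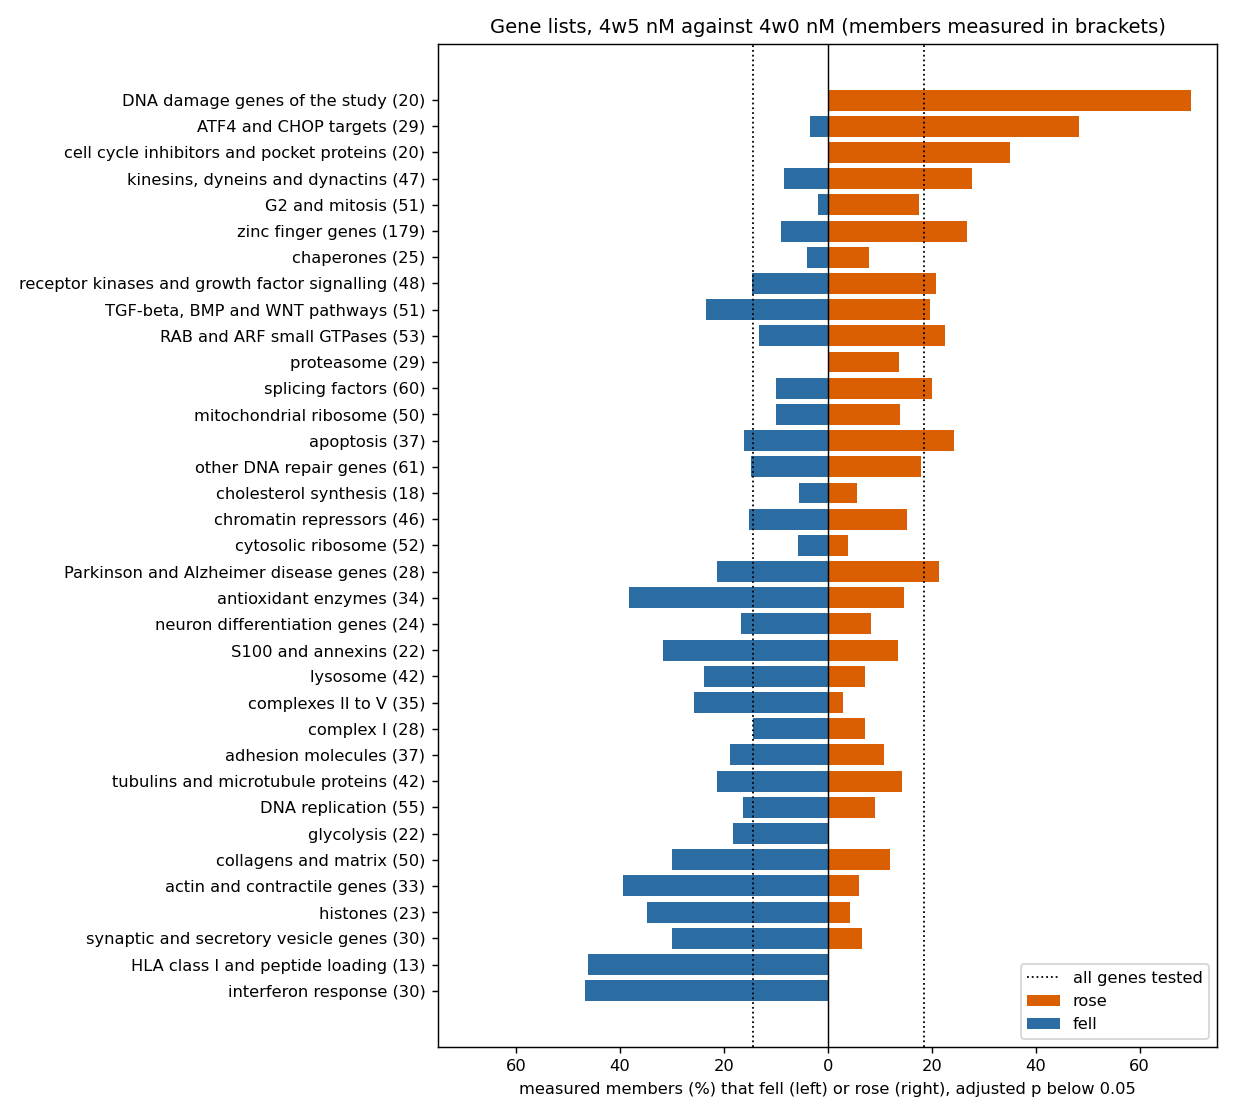
Share of the measured members of each gene list (y axis, number measured in brackets) that rose (right) or fell (left) with 5 nM at an adjusted p below 0.05, with dotted lines at the shares of all genes tested (18.6% and 14.3%). Lists are ordered by their median log2 fold change, with DNA damage genes of the study at the top and the interferon response at the bottom.

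Of 13 fibroblast markers, 5 fell (38.5%, against 14.3% of all genes) and 2 rose (15.4%, against 18.6%). The falls were COL1A2, S100A4, FAP, PDGFRB and COL1A1, the rises LUM and PRRX1, and the part of a change in cell makeup in the results was not tested. Fewer cells of a type and less RNA per cell cannot be told apart here. Of 10 sympathetic neuroblast markers 1 rose and 0 fell (1 and 1 without replicate 3), and of 7 leukocyte markers 1 rose and 1 fell (0 and 1 without replicate 3). The leukocyte antigen PTPRC (CD45) was already well measured in vehicle, with 451, 432 and 369, and had 1338, 1544 and 1567 with 5 nM, while CD3E and ITGAM, markers of T cells and myeloid cells, were at 62.1 ± 9.48 and 57.0 ± 3.99 in 4w0 nM and 63.5 ± 8.39 and 56.3 ± 6.53 in 4w5 nM (SD, n = 3). PTPRC was far apart between the groups, with an adjusted p of 0.0351 (limma), and the call was lost when any 1 of the 6 arrays was left out. The 1w0 nM arrays of PTPRC, with 745, 1061 and 63.6, add to the spread that this test uses. Both glial markers measured went apart, S100B down and FABP7, which carries fatty acids in radial glia, up, with 32.5, 44.2 and 38.5 and 215, 119 and 44.7, where replicate 3 was just above the vehicle arrays. Of 18 EWS-FLI1 genes, 6 fell (33.3%) and 1 rose (5.56%).

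A set of 17 genes measured by qRT-PCR comes from the study. It pools the genes chosen from these samples for the lower and for the higher dose with B2M, the internal control. On the arrays 14 of the 17 genes could be tested, and 4 rose and 3 fell. The rises were PTPRC, IGF1R, MAP2K4 and CLIC2, a chloride channel protein with 69.7, 91.7 and 84.8 and 262, 242 and 216. The falls were LOXL1, a collagen cross-linking oxidase with 256, 237 and 251 and 46.5, 30.6 and 33.3, APOE and SELENBP1, a selenium-binding protein with 174, 201 and 187 and 56.1, 48.3 and 38.4. These calls use array values only. For its lower dose the study reports that most selected genes changed alike on its arrays and by qRT-PCR. It names APOE, CLIC2 and PTPRC as exceptions. DDIT3, SYNJ2, IFI16, VEGFA, GFRA2, FN1 and B2M did not pass, with log2 fold changes between -0.55 and 0.77. The study discusses VEGFA, GFRA2 and FN1 for its higher dose. A gene that did not pass here need not have been chosen for the lower dose. FN1, fibronectin, had 1548, 1503 and 1556 and 977, 877 and 1355 without overlap. Its 1w0 nM arrays, with 576, 954 and 36.9, add to the spread that the test uses.

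Both doses of 4 weeks share the vehicle arrays, so the difference between them was tested directly. In 4w50 nM, 923 genes were higher than in 4w5 nM (10.1%) and 673 lower (7.35%), 214 and 277 of them at least 2-fold. Among the 331 genes that rose at least 2-fold with 5 nM, 12 were higher and 65 lower with 50 nM, and 254 did not pass. Among the 274 that fell, 88 were higher and 4 lower with 50 nM, and 182 did not pass. Both sets were picked by their 5 nM arrays, which this difference also uses, so its direction was partly set by the choice. Of the genes called with 5 nM, the 8 with the largest difference between doses are ZIC1, EPAS1, NCAM2, PTPRC, LOXL1, ATP9A, VCAM1 and MNX1. ZIC1 had 18.0, 5.33 and 38.2 in 4w50 nM, below its 4w0 nM arrays, and NCAM2 had 17.5, 14.4 and 27.8 (log2 difference between doses -3.82 and -2.88). LOXL1 had 274, 231 and 235, close to its vehicle arrays, and a log2 difference of 2.76. EPAS1, a hypoxia-inducible factor, had 120.1, 138 and 140.2, 62.0, 26.8 and 64.7 and 612, 494 and 294 with vehicle, 5 nM and 50 nM. MNX1, a motor neuron homeobox gene, had 50.0, 45.0 and 33.2, 17.6, 22.3 and 22.4 and 155, 119 and 127, and its fall with 5 nM was lost in 10 of 18 alternatives. PTPRC, VCAM1 and ATP9A had differences of -2.85, -2.74 and -2.74. Among genes not called with 5 nM, differences were as large in the qRT-PCR genes GFRA2, a receptor of the GDNF family, at -4.03, and FN1 at -3.02, with 64.2, 63.9 and 533 in 4w50 nM. SERPINI1 and MTHFD2L had differences of -0.01 (SE 0.30) and -0.03 (SE 0.17). Of the interferon-response list 4 genes were higher and 1 lower with 50 nM, and of the HLA list 5 were higher, HLA-B at 939.8, 953 and 859.9. Of the 33 actin and contractile genes 8 were higher and 4 lower, with CALD1 at 513, 423 and 203. Of the ATF4 and CHOP targets 5 were higher and 2 lower with 50 nM.

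The effect of 5 nM was also set against that of 1 week, over arrays that are all separate. The difference of the effects passed the test for 32.7% of genes, and at least 2-fold it was higher at 4 weeks for 629 and lower for 741, or for 850 and 554 under median scaling, which moved the median gene from -0.05 to 0.08 on the log2 scale. Of the 331 rises of 4 weeks, 282 had a higher effect at 4 weeks and 49 did not pass, and of the 274 falls, 263 had a lower effect and 11 did not pass. Genes picked by their 4-week change carry it into this difference, so its direction was largely set by the choice. This test rests on the 1w0 nM arrays described above, where replicate 2 lay nearer to 4w5 nM than to 4w0 nM for 52.9% of the 2-fold rises and 51.1% of the 2-fold falls. Whether these arrays or cultures carry the right labels could not be checked, so the counts between weeks hold only if they do. At 1 week G0S2 had 37.1, 38.4 and 62.6 in vehicle and 269.5, 235 and 266 with 5 nM, so its vehicle level at 1 week was near the 4w5 nM level. IFI6 had 35.7, 34.8 and 37.9 and 147, 136 and 126, and KRT8 71.5, 43.6 and 47.2 and 199, 198 and 199. For these 3 genes 1w5 nM lay close to 4w0 nM. Of the rises, ZIC1 had 88.1, 191 and 17.7 in 1w0 nM, YAP1 44.8, 147 and 11.6 and NCAM2 38.5, 93.2 and 14.8, each with replicate 2 highest and replicate 3 lowest. SERPINI1 had 96.0, 118 and 77.8 in vehicle and 25.9, 54.4 and 44.6 with 5 nM at 1 week. Without 1w0 nM replicate 3 the counts were 942 and 774, and without replicate 2 they were 509 and 754.

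Genes that rose and fell differed in their length and in where they lie. The genes that rose at least 2-fold had a median length of 75577 bases in RefSeq, those that fell 16798, and all genes tested with a promoter entry 31913. Over 5 classes of gene length with 1496 or 1497 genes each, the share that rose went from 8.28% in the shortest to 26.4% in the longest, and the share that fell from 21.8% to 9.69%. The median log2 fold change went from -0.14 to 0.18 with 5 nM and from -0.14 to 0.22 with 50 nM. By promoter G+C content no such order was seen, with medians between 0.02 and 0.04. Of the promoters of genes that rose at least 2-fold, 4.53% held the TATA box TATAAA, 35.5% the CCAAT box, 4.15% the AP-1 site TGACTCA, 12.8% the E-box CACGTG and 3.77% the repeat GGAAGGAA of EWS-FLI1 sites, both strands searched. For genes that fell the shares were 8.37%, 34.9%, 4.19%, 9.77% and 3.72%, for all genes tested 6.56%, 37.4%, 3.09%, 10.4% and 3.38%, and over all RefSeq promoters 12%, 35.7%, 4.92%, 7.43% and 3.58%.

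Along the chromosomes, neighbouring genes moved together in places. On chromosome 4, 109 of 308 genes rose (35.4%, against 18.6% of all genes) and 20 fell (6.49%, against 14.3%). On chromosome 13, 54 of 167 rose (32.3%) and 8 fell (4.79%). On chromosome 19, 29 of 605 rose (4.79%) and 141 fell (23.3%). On chromosome 19 the median gene was at -0.18 on the log2 scale after 5 nM and at -0.23 after 50 nM, and its median gene length was 15498 bases. In 220 blocks of 40 neighbouring genes the block medians ran from -0.49 to 0.56. The lowest blocks were a pair of neighbours on chromosome 3, from NBEAL2 to NT5DC2 in RefSeq order, where 39 of 80 genes fell and 0 rose (37 and 0 without replicate 3). Their median log2 signal relative to vehicle was -0.44, -0.43 and -0.39 on the 3 arrays of 4w5 nM and 0.13, 0.07 and 0.05 on those of 4w50 nM. In the direct test 42 of the 80 genes were higher and 0 lower with 50 nM than with 5 nM. Over all genes the shares were 10.1% and 7.35%. The stretch was picked by its 5 nM arrays, which this test also uses, so the direction was partly set by the choice. The shift was alike in short and long genes of this stretch, with a median log2 fold change of -0.42 in 24 genes of the shortest of 5 length classes and -0.45 in the other 56, while all 1808 genes of that length class had -0.13. WDR6, a WD repeat protein, fell most in it, with 427, 485 and 436 in 4w0 nM, 243, 193 and 154 in 4w5 nM and 641, 552 and 533 in 4w50 nM cells, and GNAI2, an inhibitory G protein subunit, had 602, 515 and 495 and 279, 314 and 250.2. The remaining 442 genes of chromosome 3 had a median of 0.11 with 5 nM and 0.16 with 50 nM. In the direct test 107 of them were higher and 62 lower with 50 nM than with 5 nM. Chromosome 8 was shifted up, with 101 of 359 genes rising (28.1%) and 27 falling (7.52%). Its array medians were 0.27, 0.28 and 0.40 in 4w5 nM, against -0.25, -0.25 and -0.23 in 4w50 nM. On the 1w0 nM arrays chromosome 8 was at 0.00, 0.26 and -0.49 and the stretch of chromosome 3 at -0.06, -0.32 and 0.07, so that replicate 2 had the signs of 4w5 nM in both places. The pattern between NBEAL2 and NT5DC2 was picked out after its values were seen, and the number of gene copies was not measured.

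**Figure D5:**
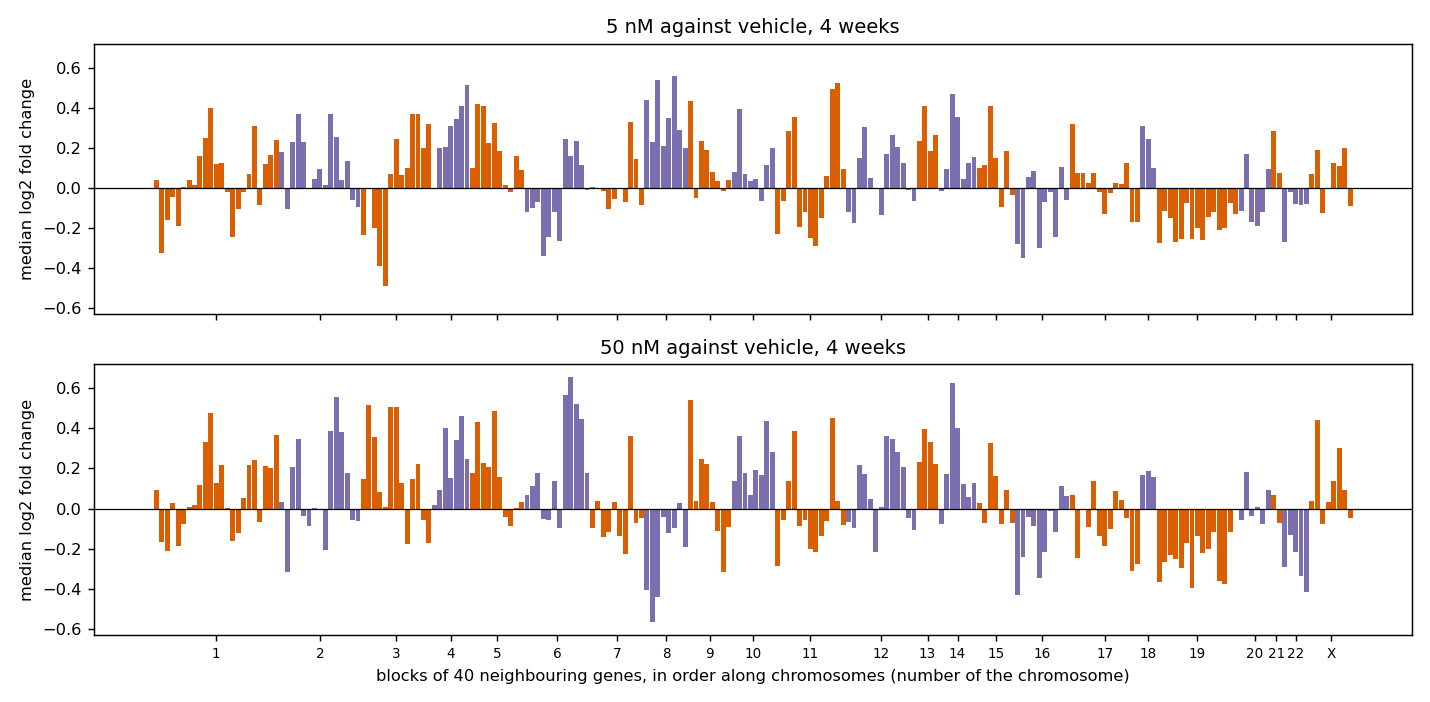
Each bar is a block of 40 neighbouring genes (220 in all, colours alternate between chromosomes) and its height is the block's median log2 fold change against vehicle (y axis), in order along chromosomes 1 to 22 and X, for 5 nM (top) and 50 nM (bottom). With 5 nM the lowest bar is on chromosome 3 (-0.49) and the highest on chromosome 8 (0.56), while the median gene of chromosome 19 is below 0 at both doses (-0.18 and -0.23).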

How the data were processed

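The values are intensities of HG-U133A arrays, 1 array per pool of dishes, which the authors normalized and summarized as model-based expression indexes in dChip and deposited on a linear scale (0.46 to 11258.4), with array medians between 87.0 and 102 and no further scaling here. The number of arrays limits the precision. The method and version of that normalization are not given in the sources used here. Of 22283 probe sets, 68 are controls, 19065 have 1 gene (19053 named through RefSeq), 1043 have several and 2107 have none listed. Signals below 16 were set to 16. A gene was represented by the probe set of highest average signal, and was tested (9162 genes) if that probe set reached 50 on 3 or more arrays. Group means were fitted to all 18 arrays in limma 3.58.1 (R 4.3.3, intensity trend, 12 residual and 5.71 prior degrees of freedom), with Benjamini-Hochberg adjustment. The fit was tested on simulated data.

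The genes named are the 15 largest rises and falls, the qRT-PCR genes, up to 4 called members of each list, the 8 largest differences between doses and between weeks among genes called with 5 nM at 4 weeks, and 3 reference genes. Others named (members of a list beyond its 4 largest, the ER stress and sterol genes, WDR6 and GNAI2, and genes naming a count or the ends of a stretch) were chosen after their values were seen. Members and lists were chosen with earlier results of these data known. The 41 gene lists come from textbook knowledge and, for DNA damage, qRT-PCR and part of the chromatin repressors, from the study, and, for 6 families, from the start of the gene symbol. The motifs of the interferon response and of ATF factors, the blocks and the placing of arrays were added later. The pairing check found correlations of -0.06, 0.13 and 0.04 between same-numbered arrays of the groups, so the numbers were not used as a block. The study's SAM and DAVID results were not used.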

Additional observations from a re-analysis of the deposited data

Results flagged for a closer look

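The effect of 5 nM differed between 4 weeks and 1 week in a direct test for 629 genes in the higher and 741 in the lower direction, at least 2-fold and at an adjusted p below 0.05 (limma). All 30 genes with the largest changes at 4 weeks are among those that differed between weeks. They were picked by their change at 4 weeks, which is part of that difference, so this is not separate evidence. For the falls the difference of the log2 effects (4 weeks minus 1 week) was -5.90 for G0S2, -5.72 for LGALS1, -6.69 for NPTX2, -5.95 for CYTL1, -5.78 for DLK1, -5.10 for COL6A3, -4.39 for LOXL1 and -4.63 for SLC18A3. It was -3.47 for S100A11, -4.94 for CRYBA2, -4.40 for IFI6, -3.83 for COL9A2, -2.88 for HMOX1, -3.93 for NSG2 and -4.25 for KRT8. For the rises it was 3.66 for DZANK1, 2.45 for ZIC1, 2.75 for PDGFRL, 3.01 for NCAM2, 3.54 for SERPINI1, 2.38 for YAP1, 1.79 for SEC24D and 2.58 for PIEZO2. It was 3.04 for HNF4G, 2.32 for DNAJC6, 2.94 for MTHFD2L, 2.27 for ARHGAP29, 1.98 for CSGALNACT2, 2.33 for HNMT and 1.98 for MSANTD2. NPTX2, CRYBA2, NSG2, DZANK1, PDGFRL, NCAM2, YAP1 and HNF4G have arrays under the floor, so their differences depend on it. The 1-week effects are measured against 3 vehicle arrays that differ among themselves and whose labels could not be checked, and their part in these differences was not tested.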

How the results depend on the processing

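Each of the 6 arrays of the main pair was left out in turn. At least 2-fold, this gave between 291 and 375 rises and between 266 and 289 falls with 5 nM. Between 181 and 238 genes were higher and between 233 and 267 lower with 50 nM than with 5 nM. No 4w50 nM array was left out, so these ranges do not cover the spread of that group. Its arrays had r between 0.97 and 0.99, and replicate 3 differed in some genes, such as DDIT3 (1884, 1971 and 540). Between 584 and 667 genes had a higher and between 710 and 752 a lower effect at 4 weeks than at 1 week. With each 1-week array left out, chosen after the data were seen, the last 2 counts were between 509 and 942 and between 659 and 782. A started log, log2(signal + 32), which shrinks the folds of low genes by construction, gave 177 rises and 121 falls with 5 nM, 136 genes higher with 50 nM than with 5 nM, and 463 with a lower effect at 4 weeks. Every other alternative changed these 6 counts by less than 1.5 times, but the scaling moved the balance of the last pair to 850 higher and 554 lower under median scaling. With the replicate number as a replicate block the counts were 326 and 272 for 5 nM, 207 and 266 between doses, and 621 and 724 between weeks. Array weights, at any fold, gave 2975 rises and 2583 falls with 5 nM beside 1703 and 1310, and 2031 genes higher and 1742 lower with 50 nM beside 923 and 673, which were 579 and 379 without 4w5 nM replicate 2. The pooled-variance t-test on the same values gave 295 and 242 after Benjamini-Hochberg adjustment. Of 171 named genes that passed, 118 passed under each of 18 alternatives, among them 29 of the 30 largest changes. PDGFRL failed in the pooled-variance t-test. MVD, of sterol synthesis, had a log2 fold change of -0.14 with all arrays and 0.64 with array weights, where it passed. A gene near the floor of 16 has only a bound of its fold.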
